A study of Mus musculus with 12 samples.

Results

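Heat shock chaperones and cold-inducible RNA-binding proteins were followed across 12 mouse whole-heart RNA libraries. The set comprised 10 genes of the 54178 gene entries in the deposited table, chosen by gene symbol with earlier results of these data known. The 8 chaperone genes were Hspa1a, Hspa1b, Hspa8, Hsph1, Hsp90aa1, Dnaja1, Dnajb1 and Chordc1, and the 2 cold-inducible genes were Cirbp and Rbm3. The 4 groups held 3 libraries each. Flox hearts came from mice with loxP-flanked Cited4 alleles on both chromosomes, and KO hearts from such mice that also carried cre under the aMHC promoter, which acts in cardiomyocytes and leaves Cited4 intact in the other cells of the heart. Each genotype was labelled either sedentary or exercise, the latter being voluntary running on a wheel over 8 weeks. Floxed alleles were thus shared by all 4 groups, and the libraries include no group with cre and intact Cited4, so effects of losing Cited4 and of the transgene cannot be told apart. The labels do not give the ages of the mice, the hour at which hearts were taken or the animal behind each sample. The p-values therefore reflect the scatter among these libraries only.

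The treatment words and the bracketed codes in the sample titles disagree: an E stands beside the sedentary word and an S beside the exercise word. Groups follow the words. If the codes were right, each exercise difference and the interaction would turn in sign, and the genotype comparisons under the sedentary and exercise labels would exchange names. Cited4 itself was at 192 to 431 counts in the 6 Flox libraries and at 0 to 5 counts in the 6 KO libraries. Library totals ran from 17465432 to 20467300 counts, of which genes with the mitochondrial prefix took 21.6% to 28.3%. Of 15226 genes tested, all 10 members were among those that passed the filter on low counts. Levels are in CPM, a gene's counts relative to the scaled size of its library.

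Heat shock factor 1 binds repeats of a short element in promoters and raises transcription of chaperone genes when unfolded protein accumulates. Hsp70 proteins hold unfolded stretches of client proteins, J-domain proteins such as Dnaja1 and Dnajb1 deliver clients and stimulate the Hsp70 ATPase, Hsph1 exchanges the nucleotide, and Hsp90 with partners such as Chordc1 completes the folding of a narrower set of clients. Cirbp and Rbm3 are small glycine-rich RNA-binding proteins whose messages increase under mild cooling and decrease under heat, opposite to the chaperones. In mouse tissues both sets of genes also follow the daily rhythm of body temperature.

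Promoter sequence from RefSeq (GRCm38.p6) was matched for 7 of the 10 members: Hspa1a, Hspa1b, Hsph1, Dnaja1, Dnajb1, Chordc1 and Cirbp. The stretches that carry a match are shown because the element is what sets the chaperone genes apart from the cold-inducible ones in textbook accounts. Each is written 5′ to 3′ on the gene's strand. Capitals mark a pair of heat shock element units, GAANNTTC or TTCNNGAA, and in Cirbp they mark TCCCCGCC, an octamer described in cold-inducible promoters.
Hspa1a, chr17:34972217-34972406, minus strand: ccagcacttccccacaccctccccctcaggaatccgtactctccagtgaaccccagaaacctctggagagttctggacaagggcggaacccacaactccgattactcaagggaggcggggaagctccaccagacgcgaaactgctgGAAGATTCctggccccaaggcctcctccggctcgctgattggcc
Hspa1b, chr17:34959299-34959488, minus strand: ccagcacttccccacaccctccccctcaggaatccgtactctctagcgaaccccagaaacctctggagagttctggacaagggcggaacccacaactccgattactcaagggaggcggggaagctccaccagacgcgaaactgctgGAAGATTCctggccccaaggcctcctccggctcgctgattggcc
Dnaja1, chr4:40722328-40722387, plus strand: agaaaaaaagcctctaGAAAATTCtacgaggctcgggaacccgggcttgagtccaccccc
Hsph1, chr5:149636317-149636396, minus strand: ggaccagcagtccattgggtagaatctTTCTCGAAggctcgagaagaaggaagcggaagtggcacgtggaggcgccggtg
Chordc1, chr9:18292207-18292286, plus strand: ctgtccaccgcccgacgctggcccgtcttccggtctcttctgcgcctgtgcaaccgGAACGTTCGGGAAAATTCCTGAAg
Cirbp, chr10:80167589-80167648, plus strand: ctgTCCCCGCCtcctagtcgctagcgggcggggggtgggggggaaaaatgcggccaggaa

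The search covered both strands from 250 bases before to 20 bases after the annotated start. A heat shock element pair lay in 5 of the 7 windows, against 14.0% of the 27025 promoter windows searched in the same way. The Hspa1a and Hspa1b windows are near copies and are both counted. In Hspa1a and Hspa1b the pair began 104 bases before the start, in Dnaja1 124 bases and in Hsph1 33 bases before it. Chordc1 held 4 overlapping pairs at its start, the first beginning 4 bases before it and the last beginning 12 bases after it. These merge into 3 overlapping triples, that is, pairs extended by NNGAA or NNTTC to keep the units alternating, an arrangement found in 0.466% of all windows. No pair was found in the Dnajb1 and Cirbp windows. The octamer lay in Cirbp, 247 bases before the start, and on the opposite strand in Hspa1a and Hspa1b, 137 bases before the start. It was present in 5.05% of all windows. These matches describe letters only.

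The Hspa1a and Hspa1b promoters were identical at 247 of 250 bases, and the transcripts are also near copies. Of the stretches of 31 bases in Hspa1a transcripts, 63.8% also occur in Hspa1b transcripts, and 67.6% the other way round. The split of reads between this pair is therefore uncertain, and their summed level is given as well. No such stretch of Hspa8 was shared with Hspa1a, and none of Cirbp with Rbm3.

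Per kilobase of exon (union of annotated exons, GRCm38), the 10 genes spanned a wide range of levels in these hearts. Hspa8, the constitutive Hsp70, had the highest median over the 12 libraries, at 269 CPM per kb. Hsp90aa1, the heat-inducible Hsp90, came next with 31.6 CPM per kb, and Cirbp and Rbm3 followed with 20.7 and 17.5 CPM per kb. The Cirbp range of 15.4 to 30.9 CPM per kb overlapped both the Hsp90aa1 range of 22.6 to 55.2 and the Rbm3 range of 12.2 to 25.2 CPM per kb. Hsph1 (7.04), Dnaja1 (6.89), Chordc1 (4.88) and Dnajb1 (4.55 CPM per kb) formed a middle tier in which the ranges of neighbours overlapped. The inducible pair Hspa1b and Hspa1a had the lowest levels, 1.57 and 1.46 CPM per kb, with overlapping ranges from 0.782 to 2.38 CPM per kb. The plot of levels by library shows all 120 values.

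**Figure D1:**
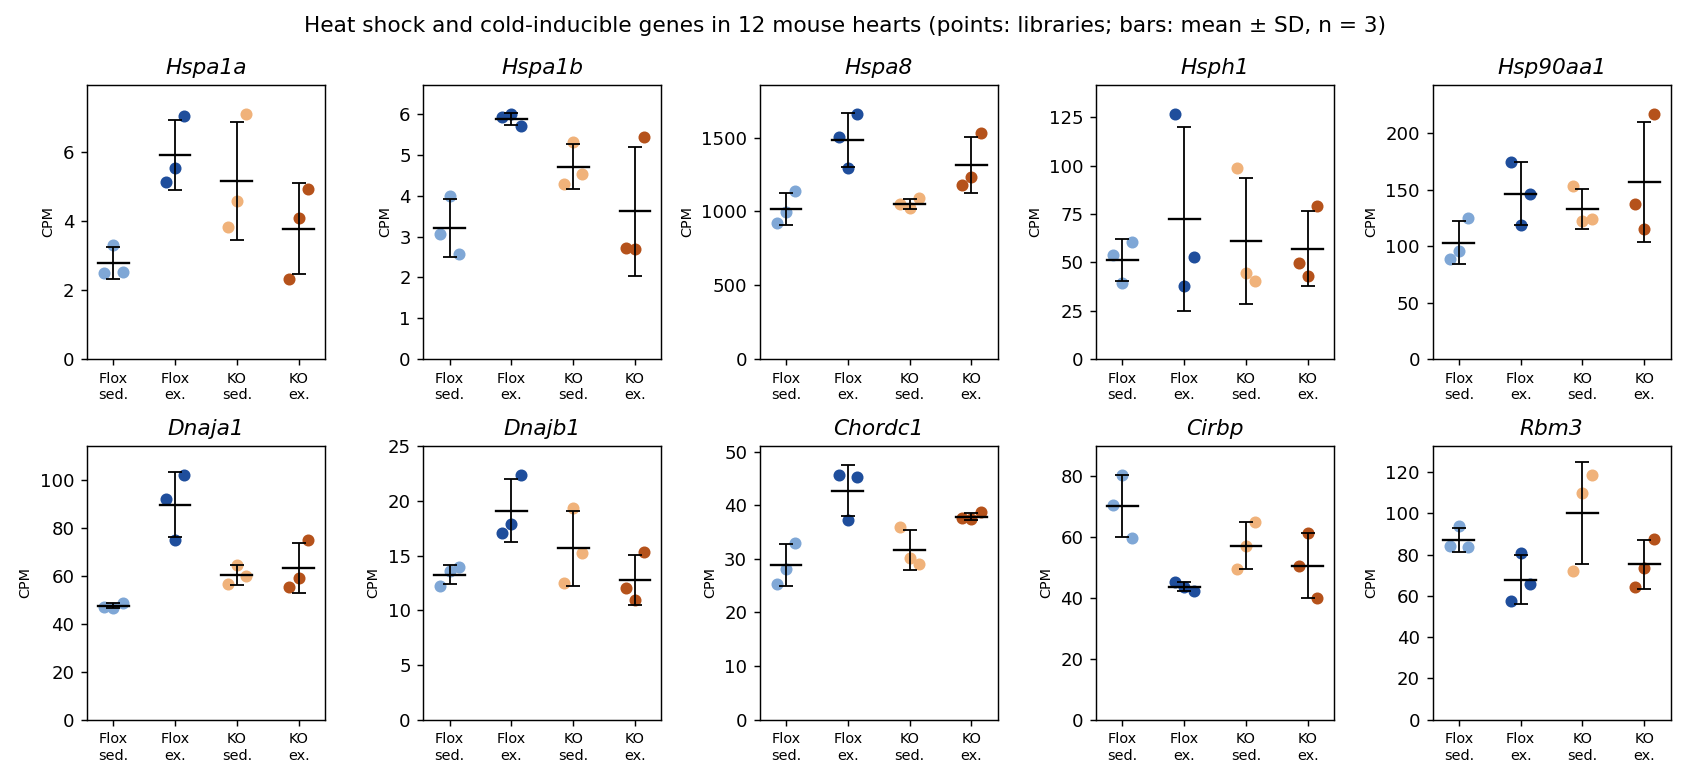
Levels of the 10 genes in CPM (y axis, linear from 0) in each of 12 libraries, by genotype and treatment label (sed., labelled sedentary; ex., labelled exercise). Points are libraries and bars are the mean ± SD of 3. In Flox hearts Dnaja1 sat between 46.8 and 48.8 CPM under the sedentary label and between 75.1 and 102 CPM under the exercise label, while Cirbp ran the other way.

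In Flox hearts the question was how the members stood after voluntary running. All 8 chaperone genes had higher mean levels under the exercise label and both cold-inducible genes lower ones. None of the 10 passed the test across all genes (edgeR's quasi-likelihood test with Benjamini-Hochberg adjustment at 0.05), and neither did any other gene, so 0% of the 15226 genes were called. At an unadjusted p below 0.05, 8 of the 10 members differed, against 7.41% of all genes. Among the chaperones 7 of 8 were higher at that level, against 3.86% of all genes, and the median difference of the 8 was 0.55 on the log2 scale beside 0.0083 over all genes. Counts out of 8 here and below take the near copies Hspa1a and Hspa1b as 2 genes, though they are not separate observations. With the pair summed, 6 of 7 were higher at that level. The members were chosen with earlier results of these data known. Their counts beside the shares of all genes are therefore a description and no independent support. In whole-heart RNA, fewer cells of a type and less RNA per cell cannot be told apart.

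The J-domain protein gene Dnaja1 had the second smallest p of all genes in this comparison. It stood at 47.1, 46.8 and 48.8 CPM in the 3 libraries labelled sedentary and at 92.1, 75.1 and 102 CPM in those labelled exercise. Every exercise library was above every sedentary one, and the sedentary libraries lay close together. The log2 difference was 0.92 ± 0.13 (SE), with an adjusted p of 0.0715 by edgeR's quasi-likelihood test. With DESeq2, which called 38 of all genes here, the difference passed (0.91, adjusted p = 5.57e-07). Without KO library 3 labelled exercise, which is in neither group compared but enters the filter, the scaling and the shared estimate of spread, it passed as well, with an adjusted p of 0.0273 by the edgeR test. Over the 21 alternatives run, the difference ran from 0.81 to 1.02 and the adjusted p from 5.57e-07 to 0.711. Dnaja1 is overlapped on the other strand by Smu1, which was at 28.4 to 35.9 CPM in the 12 libraries, and whether the counting used strand is not stated in the sources used here. Dnajb1, the J-domain partner that is induced together with Hsp70, was at 12.3 to 13.9 CPM and 17.1 to 22.4 CPM. Its groups did not overlap either (0.53 ± 0.17, edgeR adjusted p = 0.546).

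Of the Hsp70 genes, the inducible Hspa1a was at 2.48, 3.31 and 2.52 CPM under the sedentary label and at 5.13, 5.52 and 7.04 CPM under the exercise label. Its near copy Hspa1b was at 3.07, 3.99 and 2.57 CPM and at 5.93, 5.99 and 5.71 CPM. In both genes the groups were apart, on low levels of 42 to 127 counts. The log2 differences were 1.09 ± 0.29 and 0.87 ± 0.26 (edgeR adjusted p = 0.487 and 0.523). Summed, the pair differed by 0.98 ± 0.23 (edgeR adjusted p = 0.403). Hspa8 was at 925, 995 and 1138 CPM and at 1502, 1296 and 1659 CPM, again without overlap. Its difference of 0.54 ± 0.14 had an edgeR adjusted p of 0.473 and passed with DESeq2 (adjusted p = 0.018).

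Chordc1, the Hsp90-binding protein with the element triples at its start, was at 25.4, 28.2 and 33.0 CPM under the sedentary label and at 45.6, 37.3 and 45.2 CPM under the exercise label. The groups did not overlap. The log2 difference was 0.57 ± 0.12, with an edgeR adjusted p of 0.399 and a DESeq2 adjusted p of 0.0186. Hsp90aa1 was at 88.9 to 124.8 CPM and at 119 to 174 CPM (0.51 ± 0.22, edgeR adjusted p = 0.653), with 1 sedentary library above the lowest exercise library. The exchange factor Hsph1 was at 53.5, 39.4 and 60.5 CPM and at 126, 37.6 and 52.6 CPM. A single library, Flox exercise 1, set its higher mean. With that library the difference was 0.50 ± 0.50 (edgeR adjusted p = 0.847), and without it -0.18.

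The cold-inducible genes lay on the other side. Cirbp was at 70.5, 80.5 and 59.8 CPM under the sedentary label and at 45.2, 43.7 and 42.3 CPM under the exercise label in Flox hearts. The groups were apart, with the exercise libraries close together. The log2 difference was -0.68 ± 0.15, with an edgeR adjusted p of 0.399, and it passed with DESeq2 (-0.69, adjusted p = 0.0234). Rbm3 was at 84.0, 93.8 and 83.6 CPM and at 57.3, 80.7 and 65.7 CPM. It too was lower without overlap (-0.36 ± 0.18, edgeR adjusted p = 0.697). On library totals without a scaling factor Rbm3 overlapped, with Flox exercise library 2 at 6.41 and Flox sedentary library 3 at 6.34 log2 CPM. Its antisense gene Rbm3os was at 0 to 0.114 CPM. In all, 6 of the 8 chaperones were higher without overlap, against 7.5% of all genes. Both cold-inducible genes were lower without overlap, Rbm3 on scaled levels only, against 6.57% of all genes.

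In KO hearts the same question gave a mixed picture. Hspa8 and Chordc1 were again higher under the exercise label without overlap on scaled levels, and Hspa1a, Hspa1b and Dnajb1 had lower means. No member passed the edgeR test, beside 0.0197% of all genes (3 genes), and 2 of the 10 had an unadjusted p below 0.05, against 10.6% of all genes. These were Hspa8, higher as were 4.35% of all genes, and Rbm3, lower as were 6.27%. No member was lower without overlap, against 7.31% of all genes. The median difference of the 8 chaperones was -0.015, beside -0.0042 over all genes.

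Hspa8 was at 1048, 1023 and 1090.3 CPM in the KO libraries labelled sedentary and at 1178, 1234 and 1529.7 CPM in those labelled exercise (0.32 ± 0.14, edgeR adjusted p = 0.457). Chordc1 was at 35.9, 30.2 and 29.0 CPM and at 37.6, 37.4 and 38.7 CPM (0.26 ± 0.12, edgeR adjusted p = 0.472). These were the 2 of 8 chaperones higher without overlap, against 5.82% of all genes. On library totals without a scaling factor both overlapped between the labels. Hspa8 was then at 10.23 log2 CPM in sedentary library 3 and 10.16 in exercise library 1. Chordc1 was at 5.24 log2 CPM in sedentary library 1 and 5.18 in exercise library 2. Dnaja1 was at 56.6, 64.7 and 59.8 CPM and at 55.5, 59.1 and 75.1 CPM, so the groups overlapped and only library 3 labelled exercise stood above the sedentary ones. The difference was 0.068 ± 0.13 (edgeR adjusted p = 0.883). It was -0.072 on library totals without a scaling factor, a setting under which the median of all genes was -0.15, and -0.063 without KO exercise library 3. Within its group that library had the highest level of all 8 chaperones and of Rbm3 and the lowest level of Cirbp.

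The inducible Hsp70 pair was lower on average under the exercise label in KO hearts. Hspa1a was at 3.81, 4.57 and 7.08 CPM and at 2.32, 4.08 and 4.91 CPM, and Hspa1b at 4.29, 5.33 and 4.52 CPM and at 2.73, 2.68 and 5.44 CPM. Both overlapped between the labels. The log2 differences were -0.45 ± 0.29 and -0.38 ± 0.26 (edgeR adjusted p = 0.576 and 0.601). Dnajb1 was at 12.5 to 19.3 CPM and at 10.9 to 15.4 CPM (-0.30 ± 0.17, edgeR adjusted p = 0.550). Hsp90aa1 was at 122 to 154 CPM and at 116 to 217 CPM (0.23 ± 0.22, edgeR adjusted p = 0.720), and at -0.063 without KO exercise library 3. Hsph1 was at 98.8, 44.4 and 40.1 CPM and at 49.7, 42.7 and 78.9 CPM. As in Flox hearts, its difference depended on single libraries. It was -0.097 ± 0.50 with all libraries, 0.45 without KO sedentary library 1 and 0.074 without KO exercise library 2.

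Cirbp in KO hearts was at 49.6, 57.2 and 64.9 CPM under the sedentary label and at 50.7, 61.3 and 40.05 CPM under the exercise label. The libraries of the labels were interleaved (-0.18 ± 0.15, edgeR adjusted p = 0.692). Rbm3 was at 71.8, 109.8 and 118.5 CPM and at 64.3, 73.6 and 87.7 CPM, with 1 sedentary library inside the exercise range. Its difference of -0.41 ± 0.18 (edgeR adjusted p = 0.452) was close in size to that in Flox hearts.

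**Figure D2:**
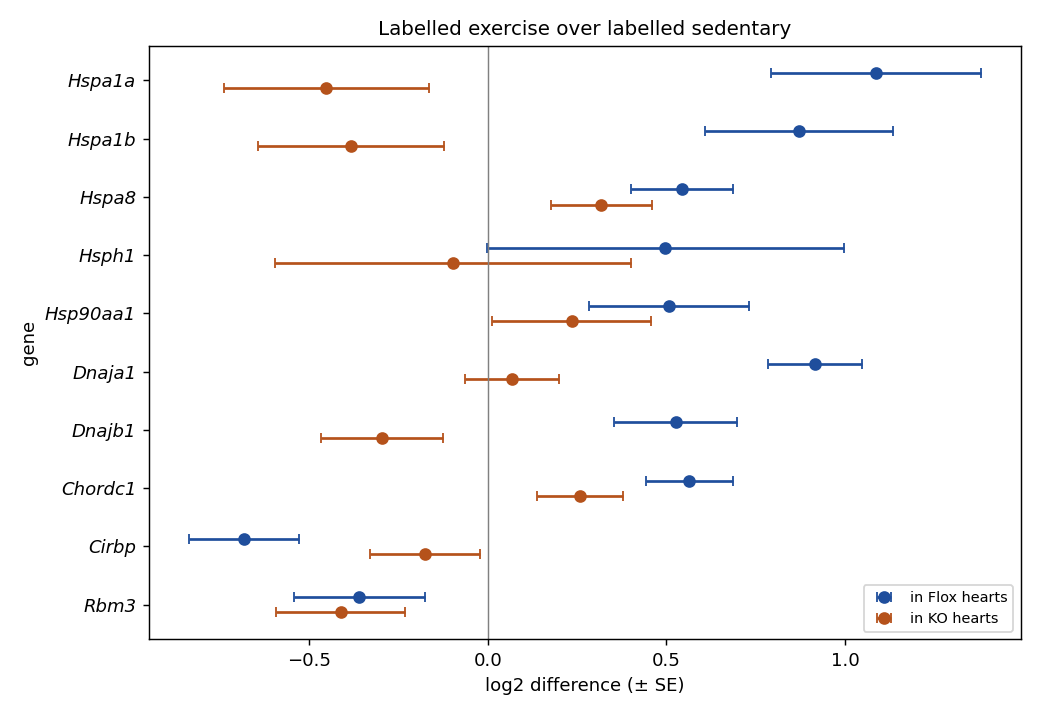
Log2 difference between the exercise and sedentary labels (x axis; point, estimate; bar, ± SE) for each gene in Flox and KO hearts, 3 libraries a group. In Flox hearts all 8 chaperones lie right of 0 and Cirbp and Rbm3 left of it. In KO hearts Hspa1a, Hspa1b, Hsph1 and Dnajb1 lie left of 0. No member passed at an adjusted p of 0.05 by edgeR in either genotype.

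Averaged over genotype, 6 of the 10 members had an unadjusted p below 0.05, against 8.45% of all genes, and none passed the edgeR test beside 0.0263% of all genes (4 genes). Dnaja1 (0.49 ± 0.09, edgeR adjusted p = 0.230), Hspa8 (0.43 ± 0.10, 0.402) and Chordc1 (0.41 ± 0.09, 0.315) were higher under the exercise label, and with DESeq2 all 3 were among the 51 genes that passed (adjusted p = 0.000947, 0.0025 and 0.00993). Of the 8 chaperones 4 were higher at the unadjusted level, the fourth being Hsp90aa1 (0.37 ± 0.16), against 3.58% of all genes. Cirbp (-0.43 ± 0.11) and Rbm3 (-0.39 ± 0.13) were lower, against 4.87% of all genes, with edgeR adjusted p of 0.435 and 0.481.

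The next comparisons asked how the genotypes stood under each label. They share libraries with the exercise comparisons, so their values are set side by side. Under the sedentary label 3 chaperones were higher in KO than in Flox hearts without overlap: Hspa1a, Hspa1b and Dnaja1, which is 3 of 8 against 10.4% of all genes. No member passed the edgeR test, beside 0.125% of all genes (19 genes), and the chaperone median was 0.30 beside 0.00019 over all genes. At an unadjusted p below 0.05, Hspa1a and Dnaja1 were higher, so 2 of 10 members against 13.5% of all genes in either direction and 8.1% higher. No member was lower at that level (5.41% of all genes) or lower without overlap (7.93%). The differences were 0.89 ± 0.29 for Hspa1a, 0.55 ± 0.26 for Hspa1b and 0.34 ± 0.13 for Dnaja1 (edgeR adjusted p = 0.216, 0.387 and 0.278). The lowest KO value of Dnaja1 was 56.6 CPM and the highest Flox value 48.8 CPM. Hspa8 differed by 0.048 ± 0.14, and Cirbp by -0.29 ± 0.15 (edgeR adjusted p = 0.425). Rbm3 stood at 0.20 ± 0.18, and at -0.029 with the atrial marker level as a covariate. On library totals without a scaling factor the median of all genes in this comparison was 0.18.

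Under the exercise label the order was the other way round for the inducible Hsp70 pair. Hspa1a, Hspa1b and Dnajb1 were lower in KO hearts without overlap, which is 3 of 8 chaperones against 7.23% of all genes. No member passed the edgeR test, beside 0.00657% of all genes (1 gene). At an unadjusted p below 0.05, 4 of the 10 differed, against 7.94% of all genes: these 3 and Dnaja1, all lower, as were 4.07% of all genes. With Hspa1a and Hspa1b summed, 3 of 7 chaperones were lower at that level. No member was higher at that level (3.87% of all genes) or higher without overlap (7.61%). Hspa1a and Hspa1b were thus apart under both labels in opposite directions, which held for 0.722% of all genes. On library totals without a scaling factor both overlapped under the exercise label, with KO library 3 above a Flox library. The differences for Hspa1a, Hspa1b and Dnajb1 were -0.65 ± 0.29, -0.70 ± 0.26 and -0.58 ± 0.17 (edgeR adjusted p = 0.620, 0.601 and 0.601). Dnaja1 differed by -0.50 ± 0.13 (edgeR adjusted p = 0.601). Its highest KO value and its lowest Flox value were both 75.1 CPM. The chaperone median was -0.42, beside -0.0073 over all genes, and Cirbp stood at 0.21 ± 0.15 (edgeR adjusted p = 0.747). Averaged over treatment, no member had an unadjusted p below 0.05, against 11.6% of all genes (5.98% higher and 5.64% lower), and none passed the edgeR test, beside 0.0525% of all genes (8 genes).

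**Figure D3:**
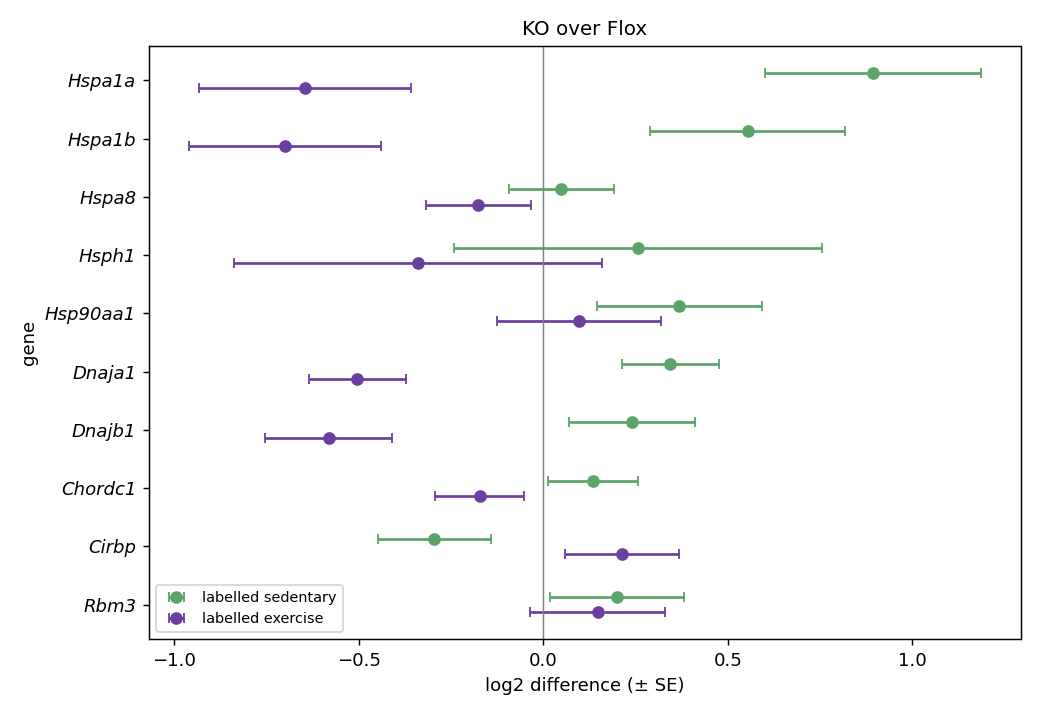
Log2 difference between KO and Flox hearts (x axis; point, estimate; bar, ± SE) under the sedentary and the exercise label, 3 libraries a group. All 8 chaperones lie right of 0 under the sedentary label, and 7 of 8, all but Hsp90aa1, lie left of 0 under the exercise label. The values for Hspa1a are 0.89 and -0.65.

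The interaction, the exercise difference in KO minus that in Flox hearts, tests directly whether the exercise differences were unequal. It passed for no member with edgeR, and for 0% of all genes (1505 genes had an unadjusted p below 0.05). At an unadjusted p below 0.05 it differed from 0 for 5 of the 10, against 9.88% of all genes. It was negative for 4 of 8 chaperones, Hspa1a, Hspa1b, Dnaja1 and Dnajb1, against 5.52% of all genes. With Hspa1a and Hspa1b summed, it was negative for 3 of 7 at that level. Hspa1a stood at -1.54 ± 0.41 (edgeR adjusted p = 0.384), Hspa1b at -1.25 ± 0.37 (0.404), Dnaja1 at -0.85 ± 0.19 (0.363) and Dnajb1 at -0.82 ± 0.24 (0.404). With DESeq2, which called 48 of all genes, Dnaja1 was the only member to pass (-0.84, adjusted p = 0.0171). Hspa8, Chordc1 and Rbm3 had interactions of -0.22 ± 0.20, -0.31 ± 0.17 (edgeR adjusted p = 0.549) and -0.053 ± 0.26. Cirbp stood at 0.51 ± 0.22 (edgeR adjusted p = 0.491), positive as for 4.37% of all genes at that level. On library totals without a scaling factor the median interaction of all genes was -0.16.

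Levels of other gene groups are given beside these differences. The 16 clock genes, which drive the daily rhythm, summed to 959 to 1317 CPM in Flox libraries labelled sedentary and to 376 to 543 CPM in those labelled exercise. Of the 16 clock genes, 4 were higher and 11 lower without overlap, against 7.5% and 6.57% of all genes. In KO hearts the sums were 677 to 1066 CPM and 458 to 969 CPM, which overlap, and 2 clock genes were higher and 1 lower without overlap, against 5.82% and 7.31% of all genes. The 8 fibroblast markers summed to 966 to 1029 CPM and 1165 to 2202 CPM in Flox, and to 1434 to 1687 CPM and 1093 to 2264 CPM in KO hearts. The 19 atrial markers ran from 1106 to 6372 CPM and 1087 to 6863 CPM in Flox, and from 3012 to 27114 CPM and 1389 to 5243 CPM in KO hearts. The 11 ventricular markers summed to 63216 to 66420 CPM and 58268 to 62057 CPM in Flox, and to 46411 to 56228 CPM and 50798 to 64429 CPM in KO hearts. Under the sedentary label 5 of the 10 tested were lower in KO than in Flox hearts without overlap, against 7.93% of all genes. One ventricular marker, Hand1, was at 0 in every library labelled sedentary. Of 11 adipocyte markers tested, 4 passed the edgeR test as higher in KO than in Flox hearts under the sedentary label. Of all genes, 0.125% passed there in either direction. By estimate 6 of the 11 were higher and 5 lower, with a median of 1.48. Their summed levels overlapped under that label (963 to 1066 CPM in KO and 1012 to 1239.9 CPM in Flox hearts). The 12 immediate early genes had a median of 1.34 there and summed to 703 CPM in KO sedentary library 3, which also had the highest Hspa1a of its group, against 224 and 255 CPM in the other KO sedentary libraries. The part of clock, immediate early or cell type marker levels in the members' differences was not tested, apart from the atrial covariate.

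The levels of the 10 members were also correlated pair by pair. Over 45 pairs and 12 libraries, permutation tests with 100000 resamples, two-sided and adjusted over the 45 pairs, passed for 17 pairs by Pearson's r and 16 by Spearman's rho. Among the 28 pairs of chaperones 12 passed by r, 26 were positive and the median r was 0.54. After the group means were taken out, 23 of 28 were positive with a median r of 0.47. Permutation moved libraries across the groups, so a passing r also holds differences between group means. For that reason r of the deviations from the group means is given as well, without a test. The 28 pairs take the near copies Hspa1a and Hspa1b as separate genes.

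Hspa8 and Chordc1 were the closest pair, with r of 0.900 (permutation p = 9e-05, adjusted 0.00405), rho of 0.916 (p = 0.0001, adjusted 0.0045) and r of 0.913 without the 2 libraries farthest from the Hspa8 median. The deviations from the group means had r of 0.618. Hsp90aa1 and Cirbp were opposed, with r of -0.826 (permutation p = 0.00072, adjusted 0.00919), rho of -0.769 (p = 0.00492, adjusted 0.0224) and r of -0.775 without 2 libraries. Their deviations, pooled over the 4 groups, had r of -0.783, which was not tested. The opposition did not hold in each group. Among Flox libraries labelled exercise, library 1 was highest in both genes (174 CPM for Hsp90aa1 and 45.2 CPM for Cirbp). All 8 chaperones were negatively correlated with Cirbp, from -0.84 to -0.439 with a median of -0.685, and 4 of the 8 pairs passed. For the deviations the median was -0.45, and 1 of the 8, Hspa1a, was positive (0.189). With Rbm3 only Chordc1 passed (r = -0.751, and -0.634 for the deviations), and not on library totals without a scaling factor (r = -0.447, adjusted permutation p = 0.228). Cirbp and Rbm3 had r of 0.505 and rho of 0.476 (permutation p = 0.0955 and 0.121, adjusted 0.178 and 0.226), r of 0.618 without 2 libraries and r of 0.187 for the deviations.

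**Figure D4:**
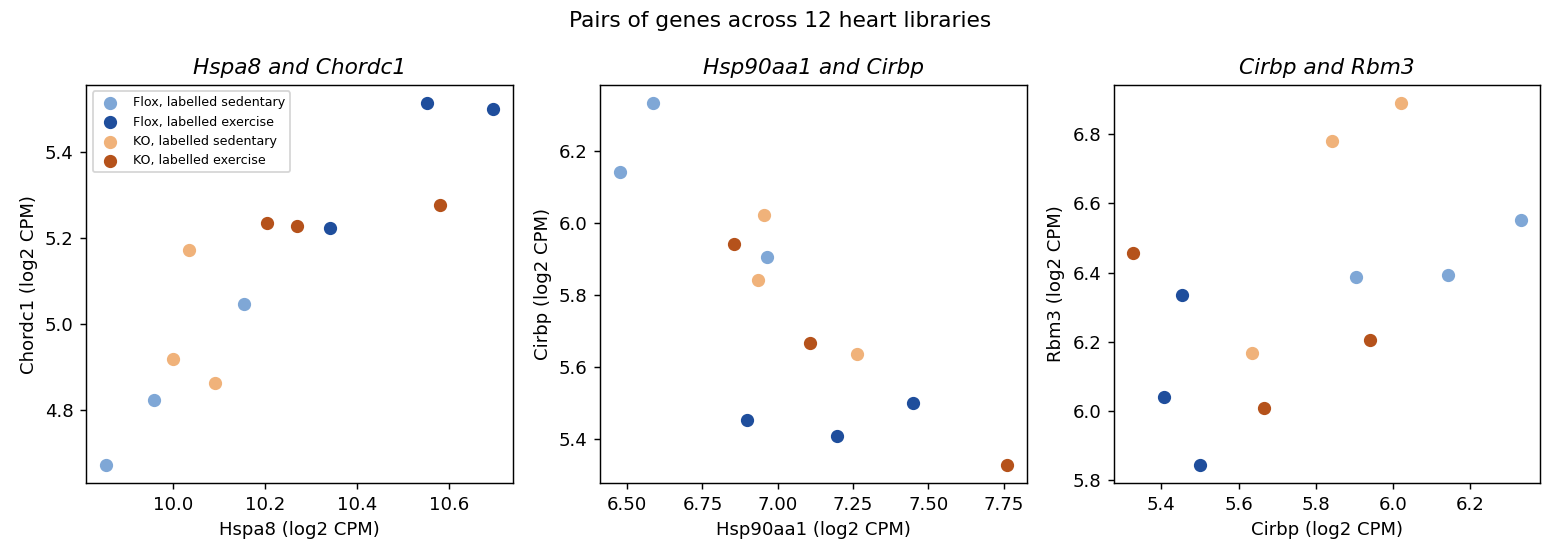
Log2 CPM of 3 pairs of genes across the 12 libraries, coloured by group. Hspa8 and Chordc1 lie along a rising line (r = 0.900), Hsp90aa1 and Cirbp along a falling one (r = -0.826), and Cirbp and Rbm3 are scattered (r = 0.505).

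By likeness over the 12 libraries, the genes closest to the mean log2 CPM of the 8 chaperones were Trmt61a (r = 0.915), Txlna (0.908), Cdr2l (0.902), Senp8 (0.902) and Tssc4 (0.891), out of 13386 candidates. Those closest to the mean of Cirbp and Rbm3 were Lrrn4cl (0.943), Frmd4b (0.928), Tspan4 (0.909), Gstt2 (0.907) and Ciart (0.906). For the deviations from the group means, the coefficients ran from 0.780 (Trmt61a) to 0.876 (Txlna) in the first set and from 0.700 (Ciart) to 0.913 (Lrrn4cl) in the second. These are the highest of many coefficients and are given with no test.

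Around the members, 91 other genes of the same machinery were read, all tested, in 9 lists. None passed in any of the 7 comparisons. In Flox hearts 7 of the 91 were higher under the exercise label and 2 lower at an unadjusted p below 0.05, which is 7.69% and 2.2% beside 3.86% and 3.56% of all genes. The smallest edgeR adjusted p was 0.487. List medians ran from -0.06 for the other Hsp70 and Hsp110 genes to 0.17 for the small heat shock proteins, against 0.55 for the 8 chaperone members. In KO hearts 9 of 91 were higher and 0 lower at an unadjusted p below 0.05, which is 9.89% and 0% beside 4.35% and 6.27% of all genes. There the list medians ran from -0.09 to 0.17 (from -0.24 to 0.029 on library totals without a scaling factor).

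Serpinh1, the collagen chaperone of the endoplasmic reticulum, was at 178 ± 27.3 CPM under the sedentary label and 288 ± 6.11 CPM under the exercise label in Flox hearts (0.69 ± 0.19, edgeR adjusted p = 0.487). The fibroblast markers given above were higher in the same libraries. Hsf1, the heat shock factor itself, was at 27.6 ± 2.94 and 33.3 ± 2.39 CPM (0.27 ± 0.11). The splicing factor Srsf3 was at 103 ± 4.40 and 137 ± 4.35 CPM (0.41 ± 0.13). Dedd2 differed by -0.59 ± 0.17. In KO hearts the mitochondrial Hsp70 Hspa9 differed by 0.37 ± 0.14 and the mitochondrial Hsp90 Trap1 by 0.30 ± 0.10 between the labels.

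Averaged over genotype, the small heat shock genes Hspb3 (0.48 ± 0.14) and Hspb2 (0.19 ± 0.07), the J-domain genes Dnajb2 (0.26 ± 0.08) and Dnajb4 (0.21 ± 0.07), the Hsp90 partner Ptges3 (0.23 ± 0.07), the chaperonin subunit Cct5 (0.15 ± 0.07) and the RNA-binding Hnrnph3 (0.28 ± 0.07) stood higher under the exercise label, without passing. All 10 chaperonin genes had a positive estimate in both genotypes, but on library totals without a scaling factor only 3 of 10 did in KO hearts. Kinases of the CLK family and SR splicing proteins had positive estimates for 10 of 13 genes in Flox hearts and for 3 of 13 in KO hearts, or 0 of 13 there on library totals. Under the exercise label all 13 were lower in KO than in Flox hearts by estimate, 5 of them at an unadjusted p below 0.05 (4.07% of all genes were), with a median of -0.25. The SR-like Tra2b stood at -0.38 ± 0.11 there, and Hspa1l, a germ-line Hsp70 that neighbours Hspa1a, at 0.62 ± 0.26. Hspa1l overlapped between the genotypes, at 6.90, 9.04 and 3.52 CPM in KO and 3.99, 4.26 and 4.43 CPM in Flox libraries. Averaged over treatment, Hspe1, the mitochondrial co-chaperonin, was at -0.35 ± 0.11 and Hnrnpa3 at -0.21 ± 0.06 in KO over Flox hearts.

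**Figure D5:**
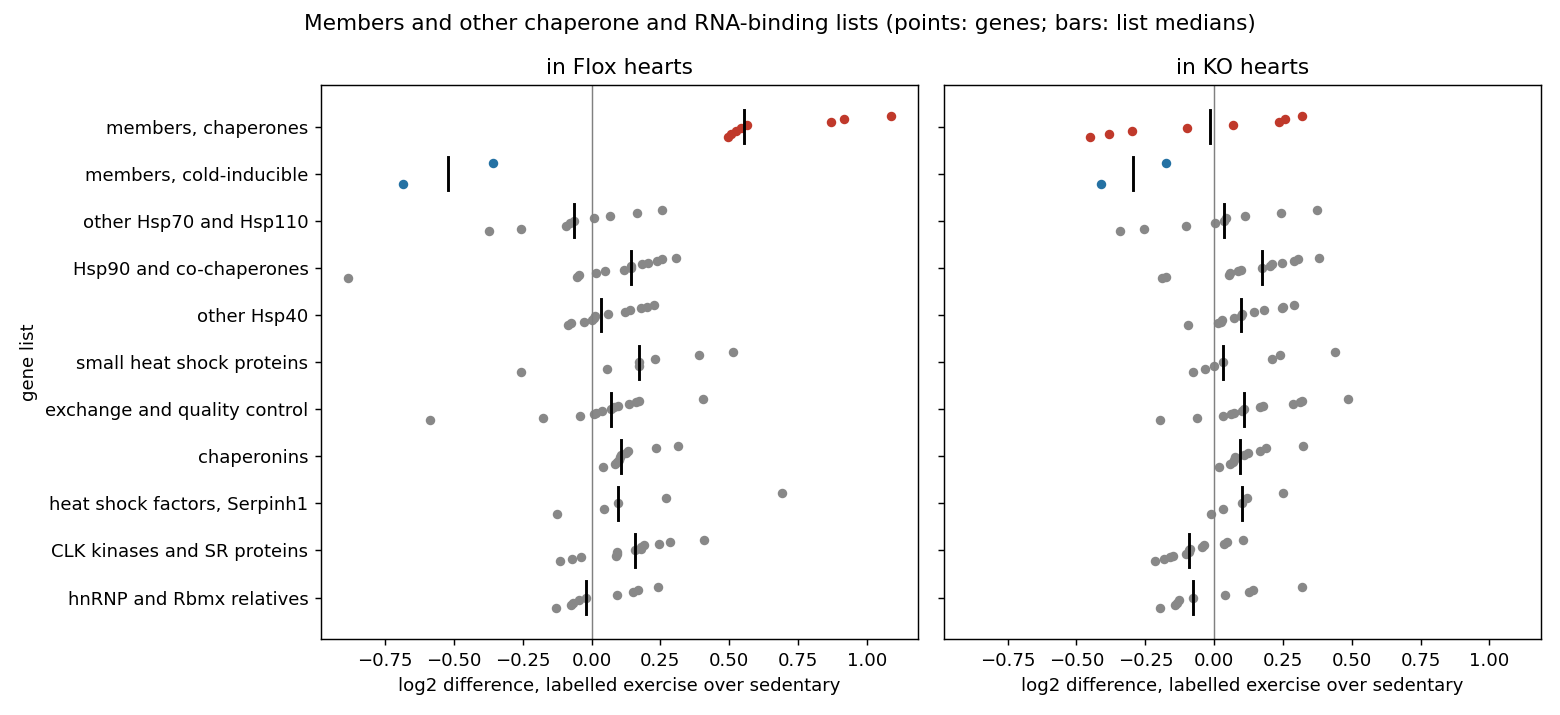
Log2 difference between the exercise and sedentary labels (x axis) for each gene of the members and of 9 further lists, in Flox hearts (left) and KO hearts (right). Points are genes and bars list medians. In Flox hearts the chaperone members sit at a median of 0.55 and the further lists between -0.06 and 0.17. In KO hearts the chaperone members spread on both sides of 0 with a median of -0.015.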

How the data were processed

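RNA from 12 mouse whole hearts had been sequenced after ribosomal RNA depletion, per the labels' protocols. The authors deposited estimated counts by gene symbol, with no scaling across libraries. FastQC and Salmon, which estimates transcript abundance and splits reads between near-identical sequences, are named without versions in the submitters' processing notes, as are the builds mm9 and mm10 without a role. Annotation, strandedness and how transcripts were summed to genes: not given in the sources used here.

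Of 55874 entries, 1696 named vectors or adaptors and entered neither library sizes nor tests. They took 3.87e-05% to 0.186% of a library's counts. Of the values above 0, 29.9% to 34.9% per library were not whole, and the expected counts were rounded. Replicate pairs differed by a chi-square per degree of freedom of 17.7 to 89.9, so no pair was treated as a single library.

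Groups followed the words for genotype and treatment in the sample labels. Genes were tested with edgeR 4.0.16 and limma 3.58.1 in R 4.3.3 (TMM scaling after filterByExpr by group, 1 mean for each of 4 groups, robust glmQLFit, glmQLFTest, Benjamini-Hochberg adjustment over 15226 genes at 0.05). The 7 comparisons were exercise over sedentary in each genotype, KO over Flox in each treatment, the interaction and both averages. Standard errors came from the log2 difference and its F statistic. Scripts were tested on simulated data with known differences. Alternatives were other scalings, no filter, DESeq2 1.42.0, leaving out each library, the replicate number as a block, pairs of groups alone and marker or vector levels as covariates. Correlations used log2 CPM with a prior count of 2 and scipy 1.17.1.

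The members and lists were chosen with earlier results of these data known. All members are named, and of each further list the 2 genes with the smallest unadjusted p over the 7 comparisons, since none passed. One gene that this rule names is not reported here. Genes of like pattern are the 5 with the highest r and a mean of at least 1 CPM.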

Additional observations from a re-analysis of the deposited data

Results flagged for a closer look

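The inducible Hsp70 genes stood on opposite sides in the genotype comparisons under the treatment labels. Under the sedentary label, Hspa1a and Hspa1b were higher in all 3 KO libraries than in every Flox library of that label. Under the exercise label, both were lower in all 3 KO libraries than in every Flox library of that label. That separation did not hold on library totals without a scaling factor. KO exercise library 3 was then above Flox exercise library 1 for Hspa1a (2.36 and 2.31 log2 CPM). It was also above Flox exercise library 3 for Hspa1b (2.51 and 2.39 log2 CPM). The interaction was -1.54 for Hspa1a and -1.25 for Hspa1b on the log2 scale, with an unadjusted p of 0.00235 and 0.00482 and an edgeR adjusted p of 0.384 and 0.404. Summed over both genes it was -1.40 ± 0.33 (edgeR adjusted p = 0.375). Of all genes tested, 110 (0.722%) were apart on scaled levels in both treatments in opposite directions. Both genes share most of their sequence and cannot be counted as separate observations.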

How the results depend on the processing

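Of 1263 member values and correlations recomputed, 1229 kept their direction and their side of the threshold, 11 passed only under the alternative, 1 no longer passed and 22 changed sign. The tally leaves out correlations that had not passed and member values of KO over Flox averaged over treatment. In that comparison 2 of 8 chaperones were higher by estimate with TMM scaling. On library totals without a scaling factor 7 of 8 were, where the median of all genes was 0.10. The number of members passing was 0 of 10 in all 7 comparisons with the edgeR test. For exercise in Flox hearts it was 1 without the filter on low counts and 4 with DESeq2, and 0 to 1 over the fits without a library. For the interaction it was 1 with DESeq2. For exercise averaged over genotype it was 1 without the filter (Dnaja1, edgeR adjusted p = 0.0287) and 3 with DESeq2. The cause of these changes was not tested.

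Signs changed mostly where differences were smaller than their SE. Without 1 library at a time, Hsph1 ran from -0.18 to 0.80 for exercise in Flox, from -0.39 to 0.45 in KO and from -0.14 to 0.47 averaged. Its KO over Flox difference ran from -0.29 to 0.48 under the sedentary and from -0.64 to 0.34 under the exercise label, and its interaction from -0.89 to 0.086. Likewise Dnaja1 ran from -0.063 to 0.15 and Hsp90aa1 from -0.063 to 0.41 for exercise in KO, Hsp90aa1 from -0.21 to 0.27 for KO over Flox under exercise, Hspa8 from -0.018 to 0.13 for KO over Flox under sedentary, and the Rbm3 interaction from -0.22 to 0.11. Dnaja1 for exercise in KO was -0.072 on library totals. Groups apart on scaled levels overlapped on library totals for Rbm3 (exercise in Flox) and for Hspa8 and Chordc1 (exercise in KO). The same held for Hspa1a and Hspa1b in KO over Flox under exercise. With atrial markers as a covariate Rbm3 was at -0.029 for KO over Flox under sedentary and at 0.13 for the interaction. With the share of vector entries as a covariate, an alternative chosen after seeing the data, the Rbm3 interaction was 0.0098 and Hsp90aa1 for KO over Flox under exercise was -0.014.

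Replicate numbers appear in each group. Same-numbered libraries deviated together with r from -0.32 to 0.31, over 0.1 in 6 of 18 pairs, so the numbers were not taken to pair samples. With the replicate number as a block 0 members passed in any comparison, and Hsph1 for exercise in KO was 0.0018.

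Counts over all genes passing were less stable: 73 of 151 moved by over 1.5 times. Apart from fits without a library, they ran from 0 to 38 for exercise in Flox, 0 to 121 in KO, 3 to 394 for KO over Flox under sedentary, 1 to 10 under exercise and 0 to 48 for the interaction, against 0, 3, 19, 1 and 0. Without 1 library they ran from 0 to 566 for exercise in KO and from 2 to 479 for KO over Flox under sedentary, both highest without KO sedentary library 1, so the shares of all genes called in these comparisons rest on that library. The number of chaperones higher at an unadjusted p below 0.05 was 5 to 7 of 8 for exercise in Flox and 1 to 6 of 8 for KO over Flox under sedentary. In the edgeR fit with TMM scaling, 3.86% and 8.1% of all genes were higher at that level. The count of 6 came from library totals without a scaling factor, where the median of all genes was 0.18. Between 42 and 155 counts of Hspa1a per library limit its precision.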
